A study of Mus musculus with 8 samples.

Results

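The genes described here are 34 immediate-early and dissociation stress genes, taken by symbol from a table of 54532 genes of the mouse, and all 34 were found. They were followed in PDGFRα-sorted cardiac fibroblasts from infarcts 7 days after coronary occlusion. PDGFRα is a growth factor receptor that marks fibroblasts, and the cells were sequenced without culture. FTbR2KO denotes fibroblast-specific loss of TbR2, the type 2 receptor for TGF-β encoded by Tgfbr2, and TbR2fl/fl denotes controls that carry the floxed gene, with 4 samples in each group. Tamoxifen had been given to the mice of both groups. The Cre driver, strain, sex and age of the mice are not given in the sources used here, nor whether the samples came from separate mice. The p-values cover only the spread between these libraries, which may be technical.

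Values are FPKM as deposited by the authors, a read density per kilobase of gene that is scaled for depth, so that levels of different genes can be compared per length. Depth was 16.1 to 22.9 M reads in FTbR2KO and 21.2 to 28.7 M in TbR2fl/fl libraries. The 10 fibroblast markers summed to 11209 to 13594 FPKM in FTbR2KO and 13097 to 14627 FPKM in TbR2fl/fl, and Pdgfra alone lay between 45.5 and 85.6 FPKM. Ptprc, the pan-leukocyte marker, was at most 0.0346 FPKM in any library, and Myh6 of cardiomyocytes at most 0.375 FPKM. Some other markers of these cells were higher. Among macrophage markers Cd68 lay at 2.01 to 7.15 FPKM and Lyz2 at 2.45 to 5.60 FPKM, and the cardiomyocyte marker Actc1 at 0.392 to 2.81 FPKM. The targeted gene went against its label: Tgfbr2 measured 56.9 to 60.0 FPKM in the libraries labelled FTbR2KO, against 40.3 to 49.6 FPKM in controls (limma adjusted p = 0.571). A value over the whole gene cannot show whether an exon was deleted, so each direction below refers to the libraries as labelled. Libraries are numbered as in their titles, 1 to 4 for FTbR2KO and 5 to 8 for TbR2fl/fl, and values are listed in that order.

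Immediate-early genes are switched on by signalling without new protein synthesis. Kinases of the MAP kinase pathways act on the serum response factor and its ternary complex partners at CArG boxes and on CREB at cAMP response elements of promoters that are already open. Their products include the Fos and Jun proteins, which pair to form the transcription factor AP-1, the Egr and Nr4a factors, and inhibitors that end the response. Heat shock genes form a separate branch, driven by the heat shock factor HSF1 when unfolded protein accumulates. Both branches are known to be induced when solid tissue is dissociated by enzymes before sorting, and both also answer injury and growth factors in the living heart. A bulk value at the end of such an isolation cannot tell these sources apart, nor fewer expressing cells from less RNA per cell.

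The promoters were searched for elements through which the branches are known to be driven, and some are shown with or without a match. RefSeq promoters of build GRCm38.p6, from 250 bases before to 50 bases after a start site, were matched by symbol for 29 of the 34 genes, with 39 start sites in all; Fosl1, Egr1, Egr3, Ier2 and Myc had no entry. The search covered both strands and used the CArG box, the cAMP response element TGACGTCA, its core TGACG or CGTCA, the AP-1 element TGAGTCA or TGACTCA, and the heat shock element GAANNTTC or TTCNNGAA. Every full cAMP response element also counts as a core. A match is a description of letters, not of binding, and a missing match says only that these letters are not in this window.

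In Fos (chr12:85473640-85473939, plus strand) the capitals mark cores of the cAMP response element. Zfp36 (chr7:28379179-28379478, minus strand) is shown, as a choice made after the matches were seen, with its CArG box in capitals.
Fos: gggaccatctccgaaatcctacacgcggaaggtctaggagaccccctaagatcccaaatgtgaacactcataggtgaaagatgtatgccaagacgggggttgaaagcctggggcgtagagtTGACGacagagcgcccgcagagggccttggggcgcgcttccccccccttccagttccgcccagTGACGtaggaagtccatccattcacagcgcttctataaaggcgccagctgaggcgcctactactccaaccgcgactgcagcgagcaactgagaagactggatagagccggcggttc
Zfp36: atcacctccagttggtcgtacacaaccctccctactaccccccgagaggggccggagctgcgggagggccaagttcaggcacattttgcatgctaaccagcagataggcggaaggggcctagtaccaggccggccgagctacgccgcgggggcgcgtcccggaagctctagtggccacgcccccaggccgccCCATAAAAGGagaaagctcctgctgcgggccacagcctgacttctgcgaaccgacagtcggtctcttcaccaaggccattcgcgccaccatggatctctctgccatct

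Hspa1a (chr17:34972107-34972406, minus strand), Hspa1b (chr17:34959189-34959488, minus strand), Hsph1 (chr5:149636287-149636586, minus strand, also chosen after the matches were seen) and Jun (chr4:95052173-95052472, minus strand) have their heat shock elements in capitals, and the last run of capitals in Hsph1 holds a pair of overlapping ones. Dnajb1 (chr8:83607925-83608224, plus strand) is the heat shock member in which no such element was found in this window, and is all in lower case.
Hspa1a: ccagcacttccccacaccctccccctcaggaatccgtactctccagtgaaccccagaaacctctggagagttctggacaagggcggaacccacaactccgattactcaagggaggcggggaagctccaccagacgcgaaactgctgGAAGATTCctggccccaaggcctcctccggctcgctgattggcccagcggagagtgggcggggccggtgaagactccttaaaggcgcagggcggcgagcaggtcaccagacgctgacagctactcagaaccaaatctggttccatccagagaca
Hspa1b: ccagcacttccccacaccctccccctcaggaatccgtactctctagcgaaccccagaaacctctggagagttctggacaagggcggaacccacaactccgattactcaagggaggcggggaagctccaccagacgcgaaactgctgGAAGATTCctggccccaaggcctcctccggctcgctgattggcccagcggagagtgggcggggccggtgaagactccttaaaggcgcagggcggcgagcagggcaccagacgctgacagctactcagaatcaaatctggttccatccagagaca
Hsph1: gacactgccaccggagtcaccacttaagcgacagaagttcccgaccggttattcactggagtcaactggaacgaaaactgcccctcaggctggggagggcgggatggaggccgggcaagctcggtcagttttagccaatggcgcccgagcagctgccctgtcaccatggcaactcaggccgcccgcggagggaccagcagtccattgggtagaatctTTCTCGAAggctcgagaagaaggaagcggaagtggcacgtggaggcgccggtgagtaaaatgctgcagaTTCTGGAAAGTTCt
Dnajb1: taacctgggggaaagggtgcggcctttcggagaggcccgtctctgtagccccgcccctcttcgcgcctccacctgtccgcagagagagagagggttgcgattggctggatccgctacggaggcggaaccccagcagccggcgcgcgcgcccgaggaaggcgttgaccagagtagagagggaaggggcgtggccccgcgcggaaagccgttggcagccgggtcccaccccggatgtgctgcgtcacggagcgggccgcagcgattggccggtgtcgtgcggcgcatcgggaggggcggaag
Jun: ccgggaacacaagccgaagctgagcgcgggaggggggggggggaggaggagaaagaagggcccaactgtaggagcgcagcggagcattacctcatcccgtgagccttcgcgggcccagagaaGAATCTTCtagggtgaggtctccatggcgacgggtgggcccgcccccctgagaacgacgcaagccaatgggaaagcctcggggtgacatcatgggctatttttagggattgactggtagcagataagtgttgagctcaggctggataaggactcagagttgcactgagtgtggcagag

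The heat shock element was present in promoters of 5 of the 6 heat shock members and of 3 of the 23 other members with an entry (Fosl2, Jun and Egr2), against 17.0% of 27025 genes in the table. The cAMP core was present in 14 of the 23 other members and 3 of the 6 heat shock members, against 23.0% of all genes. A full cAMP response element was found in Btg2, Dusp1 and Maff (2.03% of all genes) and a CArG box in Egr2 and Zfp36 (1.81%). The AP-1 element was in none of the member promoters in this window, against 5.95% of all genes. Hspa1a and Hspa1b are neighbouring copies, and their promoters were identical at 296 of 300 positions.

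Many of these transcripts were among the most abundant in the fibroblasts. All 34 members reached an FPKM of 1 in 4 or more libraries and so entered the test, with 11667 genes in all. By mean FPKM, 10 of the 34 lay among the 116 highest genes (the top 1%), where Fos ranked 16, Junb 25, Jun 32 and Egr1 45, and 22 lay in the top 5%. Ordered by level, the median member stood at percentile 98.3 of tested genes. At the other end, Fosl1 ranked 10435 and rested on as few as 28 reads in a library, whereas Fos had at least 57999 reads in each.

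No member passed the test between genotypes. Of the 34, 0 rose and 0 fell at a limma adjusted p under 0.05, where 0.0171% of all tested genes were called (2 of 11667, both higher). None reached an unadjusted p under 0.05 in this limma fit either, against 8.61% of tested genes (1004). With limma's voom on recovered reads, 0 members passed after adjustment, and 3 (Jund, Nr4a3 and Hsph1) had an unadjusted p under 0.05, against 8.28% of genes. The groups overlapped for all 34 members, while they did not overlap for 4.41% of tested genes. Log2 fold changes of FTbR2KO over TbR2fl/fl on the log2(FPKM + 1) scale ran from -0.48 (Jund) to 0.69 (Hspa1b). They were above 0 for 16 members, against 48.8% of tested genes, and below for 18, with a median of -0.029, beside -0.0045 over all tested genes. The sign of that median depended on scaling: it was 0.057 after quantile normalization (0.0047 over all genes) and 0.14 in TPM, in which all genes moved to 0.15. Without FTbR2KO 1 and control 5, which stand apart from the other libraries as described below, still 0 members passed (limma, smallest adjusted p = 0.460), 6 had an unadjusted p under 0.05 (Ier2, Ier3, Jund, Maff, Hspa1b and Hsph1), against 10.5% of tested genes, and the median was -0.12. In the test of all 8 libraries, adjusted p-values of members ran from 0.581 to 0.997. The width of the 95% confidence intervals sets what these 4 and 4 libraries could show: for Fos the interval was -0.43 to 0.34, or 0.742 to 1.26 times the control level, whereas for Hspa1b it was -0.58 to 1.97, or 0.668 to 3.91 times. The limma intervals and p-values rest on a variance shared by both groups, although the spread differed. The SD of log2(FPKM + 1) was 0.085 in FTbR2KO and 0.32 in TbR2fl/fl for Fos, and 0.84 and 1.11 for Hspa1b. It was larger in TbR2fl/fl for all members but Fosl1, Nr4a2 and Hsph1.

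**Figure D1:**
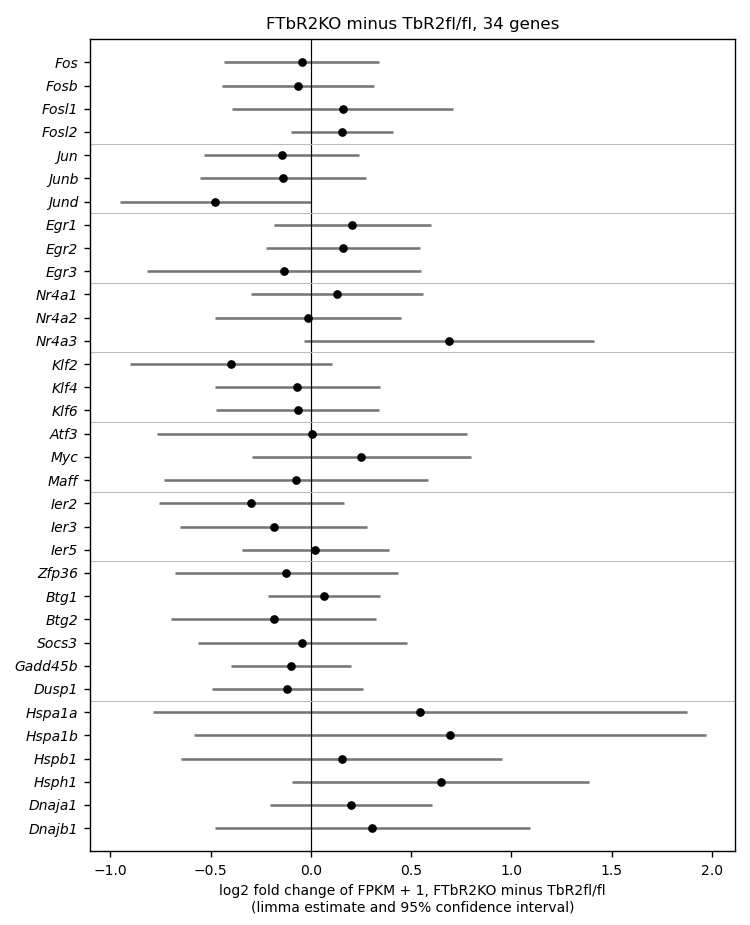
Log2 fold change (FTbR2KO minus TbR2fl/fl, on the log2(FPKM + 1) scale, horizontal axis) of each of the 34 genes, with points for limma estimates and bars for 95% confidence intervals (n = 4 per group). Every interval includes 0; the 6 heat shock genes at the bottom all have points above 0 (without control 5, the lowest library, Hspa1a and Hspb1 lie below 0), and Jund's interval ends just above 0.

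The Fos family supplies the partner in AP-1 that cannot pair with itself. Fos measured 1484, 1419, 1288 and 1411 FPKM in the libraries labelled FTbR2KO, against 1196, 1620.5, 1865 and 1202 FPKM in TbR2fl/fl controls. Its mean was 1400.4 ± 81.5 FPKM in FTbR2KO and 1471 ± 329 FPKM in TbR2fl/fl (SD, n = 4 each), a log2 fold change of -0.046 (SE 0.17) with a limma adjusted p of 0.955. Controls 6 and 7 were the highest libraries, controls 5 and 8 the lowest, and the 4 FTbR2KO libraries lay between them. Fosb, whose protein is close to Fos, measured 380.1, 378, 339 and 324 FPKM in FTbR2KO, against 348, 434, 455 and 274 FPKM in TbR2fl/fl. Control 8 was lowest and controls 6 and 7 highest, and control 5 lay among the FTbR2KO libraries. Fosl2, a slower and more stable family member, lay at 21.8 to 26.7 FPKM in FTbR2KO and 18.3 to 25.4 FPKM in TbR2fl/fl, and Fosl1 at 0.945 to 2.99 FPKM in FTbR2KO and 0.738 to 2.11 FPKM in TbR2fl/fl. Fosl1 shares 57.2% of its annotated exon bases with Ccdc85b on the opposite strand, which averaged 33.4 FPKM, and without stranded counting its reads are uncertain. Within the family, Fos made up 78.6 ± 1.16% of the summed FPKM in FTbR2KO and 78.6 ± 1.75% in TbR2fl/fl (SD, n = 4 each), and 76.5 to 80.4% in any library. Fosb made up 18.3 to 22.2%, Fosl2 0.954 to 1.61% and Fosl1 0.0464 to 0.181%. The level of Fos differed 1.56-fold between the highest and lowest library.

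Jun proteins pair with Fos or with each other. Jun measured 729, 694, 619.8 and 752 FPKM in FTbR2KO, against 667, 866, 998 and 613 FPKM in TbR2fl/fl. Junb, a weaker activator that can oppose Jun, measured 803, 732, 765 and 809.9 FPKM in FTbR2KO, against 677, 1017, 1126 and 692 FPKM in TbR2fl/fl. For both genes controls 6 and 7 were again the highest, and the FTbR2KO libraries fell inside the range of the controls. Jund, the family member usually expressed at rest, measured 214, 199, 189 and 309 FPKM in FTbR2KO, against 238, 356, 409.9 and 268 FPKM in TbR2fl/fl. FTbR2KO 1 to 3 were the lowest of the 8 libraries, and FTbR2KO 4 stood above controls 5 and 8. The log2 fold change of Jund was -0.48 (SE 0.21), the smallest p of the 34 members (limma p = 0.0502, adjusted p = 0.581; exact two-sided permutation p = 0.114, n = 4 each). Its share of the Jun family was 12.2, 12.2, 12.0 and 16.5% in FTbR2KO, against 15.1, 15.9, 16.2 and 17.0% in TbR2fl/fl (exact permutation p = 0.114, n = 4 each, not adjusted for the 15 shares computed). Jund's exons overlap the antisense gene Gm11175 over 52.6% of their bases; that gene was listed at 0 in all 8 libraries. Overlaps with a gene on the opposite strand covered 7.52% of the exon bases of Junb, 7.28% of Jun and 7.05% of Dnaja1.

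**Figure D2:**
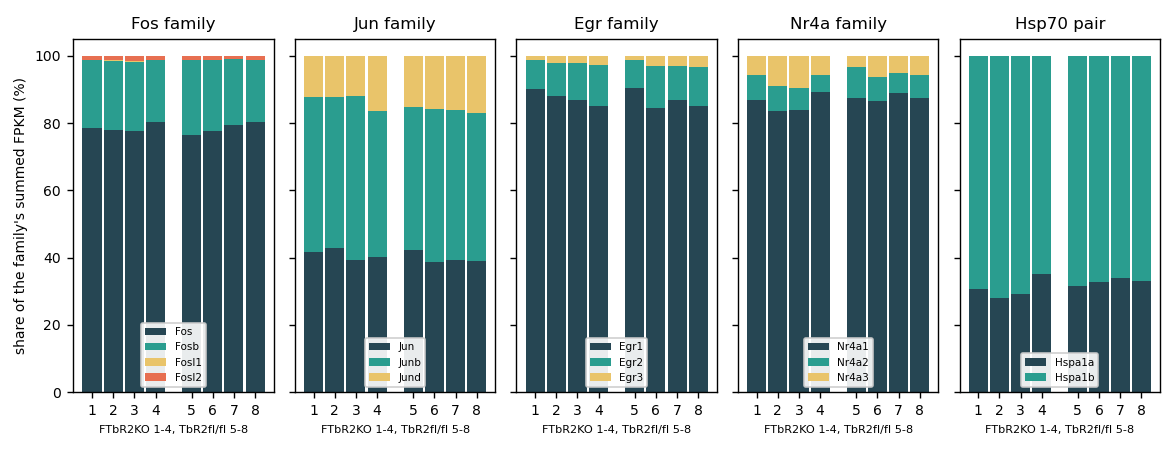
Share of the summed FPKM of each family (percent, vertical axis) taken by each member in each library (horizontal axis, FTbR2KO 1 to 4 on the left and TbR2fl/fl 5 to 8 on the right; 1 bar is 1 library). Fos takes 76.5 to 80.4% of its family in every library, while Jund takes 12.0 to 17.0% and is smallest in FTbR2KO 1 to 3.

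Egr factors are zinc finger activators induced through the serum response factor. Egr1 measured 768, 679, 668 and 584 FPKM in FTbR2KO, against 583, 596, 754 and 436 FPKM in TbR2fl/fl. Control 8 was lowest, FTbR2KO 1 highest, and the log2 fold change was 0.21 (SE 0.17). Egr2, which also has a known role in myelination, lay at 72.7 to 84.7 FPKM in FTbR2KO and 53.8 to 88.1 FPKM in TbR2fl/fl, and Egr3, a target of the other Egr factors in some cells, at 9.94 to 18.5 FPKM in FTbR2KO and 8.42 to 24.8 FPKM in TbR2fl/fl. For both genes control 5 was the lowest and control 7 the highest library. Egr1 took 84.6 to 90.4% of the family's FPKM.

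The Nr4a genes encode orphan nuclear receptors whose activity follows their amount. Nr4a1 measured 365, 342, 354 and 317 FPKM in FTbR2KO, against 265, 369, 429.7 and 232 FPKM in TbR2fl/fl, with controls 7 and 8 at the 2 extremes. Nr4a2 lay at 17.8 to 31.0 FPKM in FTbR2KO and 18.5 to 30.8 FPKM in TbR2fl/fl. Nr4a3 had one of the largest differences between the group means. It measured 24.1, 36.2, 39.6 and 19.8 FPKM in FTbR2KO, against 9.60, 26.4, 24.1 and 15.1 FPKM in TbR2fl/fl. FTbR2KO 2 and 3 stood above all other libraries and control 5 below all others, but FTbR2KO 1 and 4 lay among the controls. The mean was 29.9 ± 9.49 FPKM in FTbR2KO and 18.8 ± 7.83 FPKM in TbR2fl/fl (SD, n = 4 each), and the log2 fold change of 0.69 (SE 0.32) did not pass (limma p = 0.0597, adjusted p = 0.591; exact permutation p = 0.143, n = 4 each). Nr4a3 made up 5.74, 8.87, 9.41 and 5.59% of the Nr4a family's FPKM in FTbR2KO, against 3.17, 6.20, 4.98 and 5.67% in TbR2fl/fl.

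Of the Krüppel-like factors, Klf2 measured 324, 377, 284 and 399 FPKM in FTbR2KO, against 338, 562, 628 and 350.4 FPKM in TbR2fl/fl. Controls 6 and 7 stood above all other libraries, and control 5 lay within the range of FTbR2KO libraries, as did control 8. The log2 fold change was -0.40 (SE 0.22, limma adjusted p = 0.628). Klf4, known for its part in reprogramming and in smooth muscle, lay at 212 to 262 FPKM in FTbR2KO and 190.2 to 332 FPKM in TbR2fl/fl, and Klf6, a factor induced by injury, at 74.0 to 103 FPKM in FTbR2KO and 71.3 to 123 FPKM in TbR2fl/fl. Atf3, a stress-induced repressor of the CREB family, measured 108, 119.8, 108 and 133 FPKM in FTbR2KO, against 61.0, 174, 201 and 84.6 FPKM in TbR2fl/fl. The 4 controls held both the 2 lowest and the 2 highest values of Atf3, and its log2 fold change was 0.0062 (SE 0.34). Myc, a driver of growth and ribosome production, lay at 39.5 to 64.6 FPKM in FTbR2KO and 26.9 to 61.8 FPKM in TbR2fl/fl, and Maff, a small Maf protein without an activation domain, at 18.1 to 30.7 FPKM in FTbR2KO and 13.3 to 34.9 FPKM in TbR2fl/fl. Control 5 was the lowest library for Atf3, Myc and Maff.

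**Figure D3:**
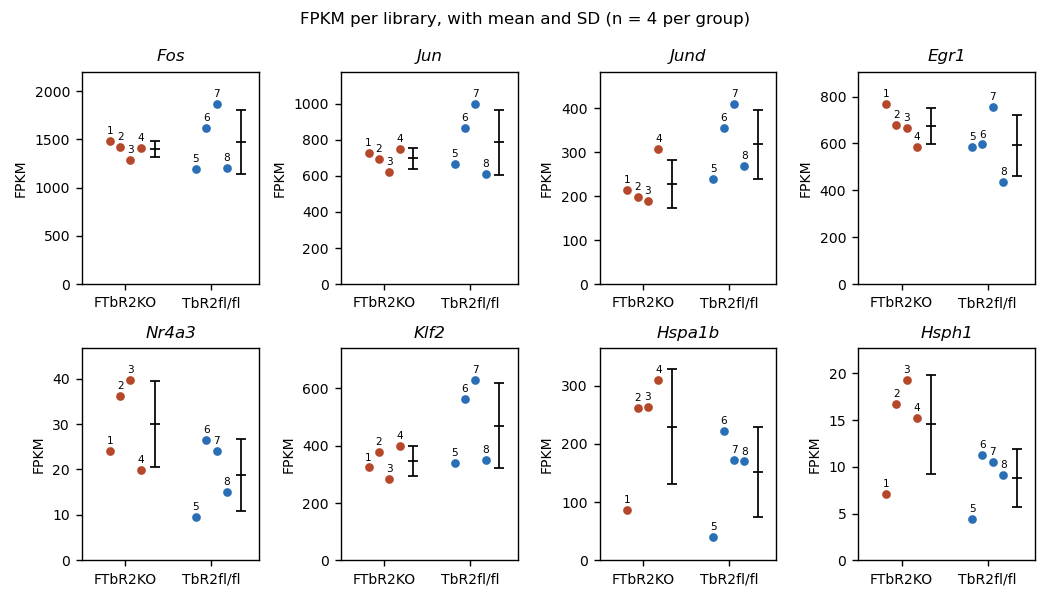
FPKM (vertical axis, from 0) of 8 members in each library, with points numbered by library, FTbR2KO 1 to 4 left of TbR2fl/fl 5 to 8, and the mean with SD beside each group (n = 4 per group). The groups overlap in every panel; controls 6 and 7 are the 2 highest for Fos, Jun, Jund and Klf2, and FTbR2KO 1 and control 5 are the 2 lowest for Hspa1b and Hsph1.

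Several members end or restrain the response. Zfp36, which encodes tristetraprolin, a protein that speeds the decay of AU-rich mRNAs, measured 366, 345, 341 and 378 FPKM in FTbR2KO, against 249.6, 543, 539 and 313 FPKM in TbR2fl/fl. Dusp1, a phosphatase that inactivates MAP kinases, measured 361, 359, 341 and 395 FPKM in FTbR2KO, against 361, 422, 526 and 302 FPKM in TbR2fl/fl. Socs3, the feedback inhibitor of cytokine signalling through JAK and STAT3, measured 240.0, 182, 202 and 235 FPKM in FTbR2KO, against 159.6, 299, 296 and 165 FPKM in TbR2fl/fl. In all 3 genes controls 6 and 7 stood above the other 6 libraries, and control 5 or 8 was the lowest. Btg2, an antiproliferative gene induced by DNA damage and growth factors, lay at 186 to 262 FPKM in FTbR2KO and 173 to 329 FPKM in TbR2fl/fl, its relative Btg1 at 30.3 to 35.6 FPKM in FTbR2KO and 25.2 to 37.1 FPKM in TbR2fl/fl, and Gadd45b, an activator of stress kinase signalling, at 145 to 155 FPKM in FTbR2KO and 132 to 196 FPKM in TbR2fl/fl. Ier2, a nuclear immediate-early protein, lay at 264 to 329 FPKM in FTbR2KO and 249 to 504 FPKM in TbR2fl/fl, Ier3, linked to survival under stress, at 151 to 212 FPKM in FTbR2KO and 130.0 to 259 FPKM in TbR2fl/fl, and Ier5, linked to HSF1 activity, at 38.6 to 47.9 FPKM in FTbR2KO and 32.2 to 52.4 FPKM in TbR2fl/fl. Among these 9 genes the log2 fold change was largest in size for Ier2, at -0.30 (SE 0.20, limma adjusted p = 0.695).

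Of all members, Hspa1a and Hspa1b spread most between libraries. Hspa1b, which encodes an inducible heat shock protein chaperone (chromosome 17, 34956436 to 34959238, minus strand, GRCm38), measured 86.3, 261, 263 and 309 FPKM in FTbR2KO, against 40.3, 222, 173 and 169.9 FPKM in TbR2fl/fl. Its neighbouring copy Hspa1a measured 38.0, 102, 109 and 168 FPKM in FTbR2KO, against 18.5, 108, 89.4 and 84.1 FPKM in TbR2fl/fl. Control 5 was lowest and FTbR2KO 1 next, both well below the other 6 libraries, and FTbR2KO 4 was highest. The highest library exceeded the lowest 7.67-fold for Hspa1b and 9.06-fold for Hspa1a. Group means were 229.9 ± 98.3 FPKM in FTbR2KO and 151 ± 77.6 FPKM in TbR2fl/fl (SD, n = 4 each) for Hspa1b, with a log2 fold change of 0.69 (SE 0.57) that was smaller than the spread within groups (limma adjusted p = 0.742). Without FTbR2KO 1 and control 5 together it was 0.57 for Hspa1b (limma adjusted p = 0.460) and 0.39 for Hspa1a, and without control 5 alone it was 0.15 for Hspa1b and -0.024 for Hspa1a. Reads of the copies can be split uncertainly: 47.1% of all 100-base stretches of Hspa1a transcripts also occur in Hspa1b, and 49.9% the other way round (GENCODE M21). Hspa1a took 28.1 to 35.2% of the summed FPKM of both in any library. Hspa1a also shares 19.0% of its exon bases with Gm20481 on the opposite strand, which was listed at 0 throughout.

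Hsph1, a nucleotide exchange factor for these chaperones, measured 7.05, 16.7, 19.2 and 15.2 FPKM in FTbR2KO, against 4.42, 11.2, 10.6 and 9.08 FPKM in TbR2fl/fl. FTbR2KO 2 to 4 lay above all controls and FTbR2KO 1 below 3 of them, with a log2 fold change of 0.65 (SE 0.33, limma adjusted p = 0.602; exact permutation p = 0.143, n = 4 each). Hspb1, a small heat shock protein that holds unfolded protein, measured 132, 284, 265 and 327 FPKM in FTbR2KO, against 113, 308, 241 and 252 FPKM in TbR2fl/fl. The co-chaperone gene Dnajb1 measured 30.7, 66.3, 51.2 and 67.9 FPKM in FTbR2KO, against 21.6, 58.6, 59.9 and 38.9 FPKM in TbR2fl/fl. Control 5 and FTbR2KO 1 were the 2 lowest libraries for all 3 genes. Dnaja1, another co-chaperone, varied less, at 20.2 to 27.5 FPKM in FTbR2KO and 14.9 to 26.9 FPKM in TbR2fl/fl, with controls 5 and 8 lowest.

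The same libraries recurred at the ends of the range across members. Control 5 held the lowest value of 24 of the 34 members (70.6%), against 20.1% of all tested genes. Controls 6 and 7 were the 2 highest libraries for 18 of 34 (52.9%), against 4.25% of tested genes, and all 18 were among the 28 members outside the heat shock genes. That count was 17 when scaled to recovered reads (1.99% of tested genes) and 7 in TPM (0.291%). FTbR2KO 1 and control 5 were the 2 lowest for 5 of the 6 heat shock members, against 18.6% of tested genes and 5 of the 28 other members, and for 5 of 6 in TPM as well (1.62% of tested genes). The number codes in the titles of these 2 samples are the lowest of the 8, and the labels do not say what the codes mark. These counts were chosen after the values were seen and carry no test, and members are not independent of each other. As the median difference of the 28 members from each gene's own mean, on the log2(FPKM + 1) scale, FTbR2KO 1 to 4 stood at -0.032, 0.00013, -0.044 and 0.017, and controls 5 to 8 at -0.32, 0.31, 0.36 and -0.25. On this FPKM scale the FTbR2KO libraries thus stayed close together while controls spread to both sides. For the 6 heat shock members the same measure was -0.67, 0.46, 0.37 and 0.54 in FTbR2KO 1 to 4, against -1.09, 0.39, 0.12 and -0.078 in controls 5 to 8, which sets FTbR2KO 1 and control 5 apart from the other 6.

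**Figure D4:**
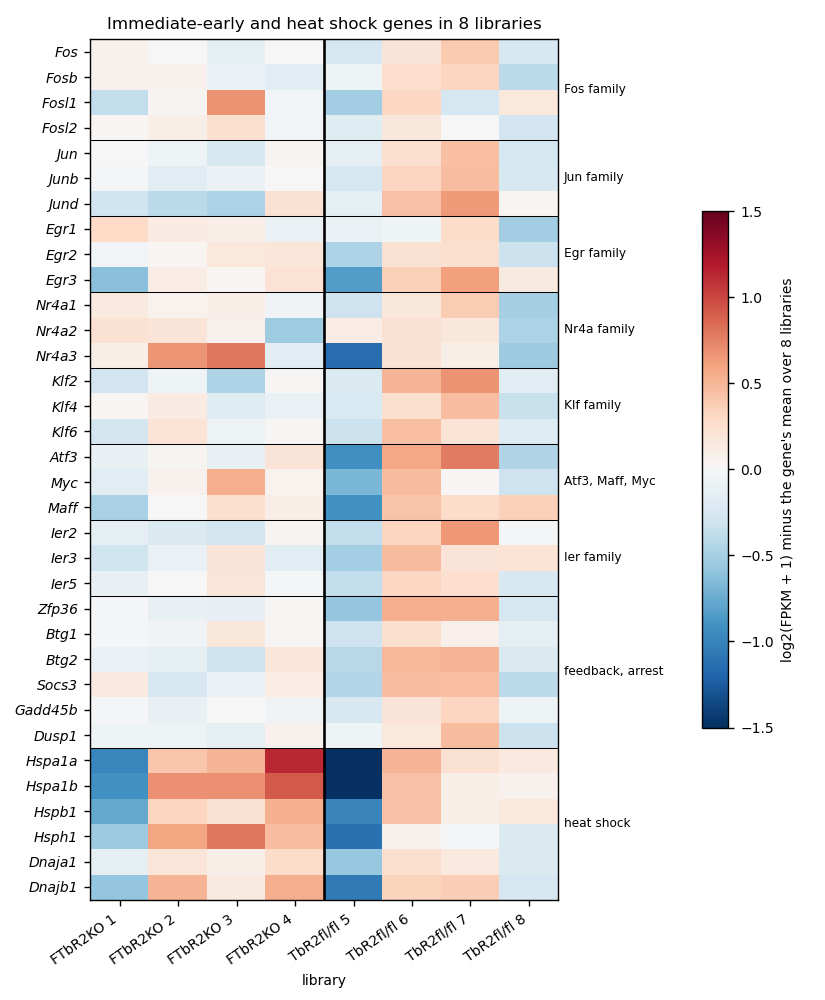
Difference of log2(FPKM + 1) from the gene's mean over the 8 libraries (colour, red above and blue below the mean) for the 34 genes (rows, grouped by family) in each library (columns, FTbR2KO 1 to 4 left of TbR2fl/fl 5 to 8). Controls 6 and 7 are red for most immediate-early genes, control 5 is blue for most, and FTbR2KO 1 and control 5 are the bluest columns for heat shock genes.

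Members spread more between libraries than most tested genes. The SD of log2(FPKM + 1) over the 8 libraries had a median of 0.33 over the 34 members and 0.60 over the 6 heat shock members, against 0.16 over all tested genes. All 34 members lay above that median of tested genes, which were not matched to the members by level. Fosl2 had the smallest SD of the members (0.17, percentile 54.3 of tested genes) and Hspa1a the largest (0.99, percentile 99.7). Fos, the most abundant member, stood at percentile 71.0, with an SD of 0.22.

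**Figure D5:**
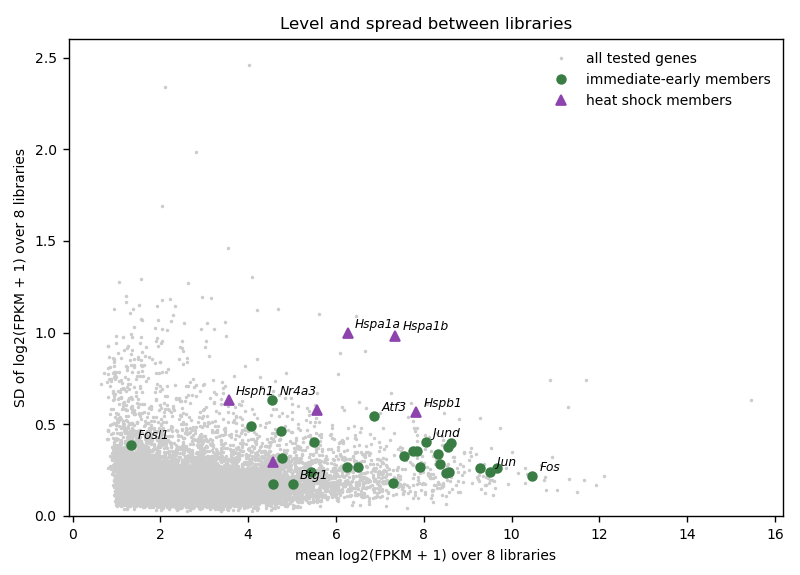
SD of log2(FPKM + 1) over the 8 libraries (vertical axis) against the mean (horizontal axis), with grey points for all 11667 tested genes, circles for the 28 immediate-early members and triangles for the 6 heat shock members. Hspa1a and Hspa1b lie near 0.98, above most of the grey points, and Fos lies far to the right at 0.22.

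Several measures of the libraries are set beside these patterns, and not all of them moved with the patterns. FTbR2KO 1 and control 5 had scores of -24.4 and -20.9 on the first principal component of all tested genes, against -0.108 to 19.0 for the other 6. Their depths of 16.1 and 27.7 M reads were the lowest and the third highest of the 8. Control 5 also had the smallest share of reads from mitochondrial genes, at 0.835%, against 1.09 to 1.23% in the other libraries. Gm23935, a short predicted gene of the microRNA class, had its highest values in controls 7 and 6 (89975 and 62543 FPKM), against 20479 to 51307 FPKM in the other libraries. The part of these measures in the patterns was not tested. Summed markers of macrophages and monocytes were 8.77 to 12.8 FPKM in FTbR2KO and 10.4 to 13.4 FPKM in TbR2fl/fl, with 7 of 12 under 1 FPKM in every library. For endothelial markers they were 19.9 to 26.5 FPKM in FTbR2KO and 19.2 to 29.1 FPKM in TbR2fl/fl (5 of 8 under 1 FPKM throughout). Tek alone lay at 15.1 to 26.8 FPKM, while Pecam1 was at most 1.17 FPKM and Cdh5 at most 1.10 FPKM. Mural markers summed to 47.1 to 73.9 FPKM in FTbR2KO and 47.6 to 63.3 FPKM in TbR2fl/fl. Mesothelial markers summed to 4.04 to 37.9 FPKM in FTbR2KO and 0.694 to 23.5 FPKM in TbR2fl/fl. Neutrophil markers summed to 0 to 0.0839 FPKM in FTbR2KO and 0 to 1.28 FPKM in TbR2fl/fl, with 3 of 6 at 0 in all libraries, lymphocyte markers to 0.0631 to 0.456 FPKM in FTbR2KO and 0.114 to 0.428 FPKM in TbR2fl/fl, cardiomyocyte markers to 2.08 to 4.51 FPKM in FTbR2KO and 3.32 to 4.17 FPKM in TbR2fl/fl and red blood cell genes to 3.77 to 11.2 FPKM in FTbR2KO and 3.56 to 43.6 FPKM in TbR2fl/fl. The mesothelial sum was 37.9, 12.2, 24.3 and 4.04 FPKM in FTbR2KO 1 to 4. In controls 5 to 8 it was 23.5, 10.4, 0.694 and 14.8 FPKM. The red blood cell sum was highest in control 6 (43.6 FPKM), lowest in control 7 (3.56 FPKM) and at most 11.2 FPKM in the other libraries. The part of either sum in the patterns above was not tested.

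How a library was scaled mattered for control 7. On the FPKM scale FTbR2KO 1 was the highest library for 2 members and control 7 for 15. After conversion to TPM, which divides by the summed FPKM of a library, FTbR2KO 1 was highest for 10 members and control 7 for 6. Gm23935 made up 8.12% of the summed FPKM in FTbR2KO 1 and 24.7% in control 7. In TPM the median difference of all tested genes from their own means was 0.21 in FTbR2KO 1, the highest. It was -0.24 in control 7, the lowest. How much of this came from Gm23935 was not tested. Control 6 was highest for 7 members on the FPKM scale and for 4 in TPM. Scaled to recovered reads, control 7 was highest for 13 members and control 6 for 9. Control 8 was lowest for 7 members on the FPKM scale, 10 when scaled to recovered reads and 13 in TPM. Control 5 was lowest for 21 members when scaled to recovered reads and for 18 in TPM. The median difference of all 34 members from each gene's own mean also changed in TPM. On the FPKM scale it was -0.10, 0.045, 0.080 and 0.029 in FTbR2KO 1 to 4, and -0.40, 0.32, 0.30 and -0.24 in controls 5 to 8. In TPM it was 0.15, 0.082, 0.16 and 0.0023 in FTbR2KO 1 to 4. In controls 5 to 8 it was -0.28, 0.18, 0.026 and -0.27, so control 7 lay within the range of FTbR2KO libraries. These TPM values still hold the shift of all tested genes. That shift was 0.21, 0.043, 0.084 and -0.014 in FTbR2KO 1 to 4. It was 0.074, -0.11, -0.24 and -0.016 in controls 5 to 8. In controls 6 and 7 the members thus lay above the median of all tested genes in TPM too.

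Further genes of the pathways were taken from lists made for this comparison. In each list 0 were called higher and 0 lower, where 0.0171% of all tested genes were called. For the directions below, 48.8% of all tested genes had a log2 fold change above 0. Of 42 tested among 47 other induced genes, 26 lay above 0 and 16 below, with a median log2 fold change of 0.088. Arc, an immediate-early gene best known from neurons, had the smallest p among them (limma adjusted p = 0.571). It measured 5.09, 11.2, 13.8 and 6.92 FPKM in FTbR2KO, against 2.26, 4.07, 5.58 and 3.08 FPKM in TbR2fl/fl. FTbR2KO 2 and 3 were the highest and control 5 the lowest, as for Nr4a3, and FTbR2KO 1 lay below control 7. Its log2 fold change was 1.07 (SE 0.30). Tiparp, a mono-ADP-ribosyltransferase gene induced through the aryl hydrocarbon receptor, measured 16.4 ± 2.68 FPKM in FTbR2KO and 11.8 ± 2.68 FPKM in TbR2fl/fl (SD, n = 4 each), and Rgs2, an inhibitor of G protein signalling, 3.01 ± 0.648 FPKM in FTbR2KO and 2.12 ± 0.488 FPKM in TbR2fl/fl.

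Upstream kinases and transcription factors varied between libraries with a median SD of 0.12 on the log2(FPKM + 1) scale over 21 tested of 23 genes. Of these, 17 lay above 0 and 4 below (median log2 fold change 0.041). Rps6ka3, an ERK-activated kinase gene, measured 9.52, 10.5, 9.46 and 8.70 FPKM in FTbR2KO, against 8.09, 7.16, 8.47 and 7.30 FPKM in TbR2fl/fl. All FTbR2KO libraries of Rps6ka3 lay above all controls, and the groups did not overlap, in either direction, for 4 of the 21 regulators, beside 4.41% of tested genes; its adjusted p was 0.571 in limma. Atf2, a CREB-family partner of Jun, averaged 6.72 ± 0.471 FPKM in FTbR2KO and 5.59 ± 0.473 FPKM in TbR2fl/fl (SD, n = 4 each). Mapk9, a JNK kinase gene, averaged 11.2 ± 0.390 FPKM in FTbR2KO and 9.88 ± 0.458 FPKM in TbR2fl/fl. Of the other AP-1 and small Maf partners 10 of 13 were tested, 7 above 0 and 3 below (median 0.065); after Atf2, which both lists hold, Atf7 (log2 fold change 0.17, SE 0.070) and Nfe2l2, the antioxidant regulator (0.27, SE 0.13), had the smallest p. The 11 mRNA decay regulators had 10 above 0 and 1 below (median 0.11), and the smallest p were those of the deadenylase subunit genes Cnot1 (0.13, SE 0.075) and Cnot6l (0.13, SE 0.073) and the exonuclease gene Xrn1 (0.13, SE 0.089).

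Among the 20 other heat shock genes, the lowest libraries, but not the highest, were often those of the 6 members. FTbR2KO 1 and control 5 were the 2 lowest libraries for 14 of the 20 (70.0%), against 18.6% of tested genes. FTbR2KO 4 was highest for 5 of the 6 members and 0 of the 20, while FTbR2KO 2 was highest for 7 of the 20 and FTbR2KO 3 for 6. Hsp90aa1, the inducible cytosolic chaperone of kinases and receptors, measured 66.2, 140.4, 134 and 119.9 FPKM in FTbR2KO, against 37.6, 110.0, 89.5 and 83.4 FPKM in TbR2fl/fl. Hspa8, the constitutive relative of Hspa1a, measured 219.6, 350.2, 381 and 289 FPKM in FTbR2KO, against 149.8, 333, 293 and 266 FPKM in TbR2fl/fl. Both are named for their position at the 2 lowest libraries, after their values were seen. The transcription factor gene Hsf1 itself lay between 3.34 and 5.35 FPKM, 1.60-fold apart. By genotype, 17 of the 20 lay above 0 and 3 below (median log2 fold change 0.097). Bag3, a co-chaperone of selective autophagy, averaged 79.0 ± 15.8 FPKM in FTbR2KO and 57.5 ± 14.1 FPKM in TbR2fl/fl (SD, n = 4 each; limma adjusted p = 0.584). Hspa4l (0.19, SE 0.098) and Chordc1 (0.17, SE 0.099) had the next smallest p, as log2 fold changes.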

How the data were processed

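Messenger RNA was sequenced from 8 samples, 4 labelled FTbR2KO and 4 TbR2fl/fl, as poly(A) libraries made with a NEBNext Ultra kit from Trizol-extracted RNA, per the labels' protocols. The authors deposited FPKM per gene for 54532 genes, with names, coordinates and lengths per the file headers. Tools listed in the submitters' processing notes, without their roles, were HTSeq 0.6.1, Cufflinks 2.1.1, TopHat2 2.0 and CASAVA, with GRCm38.p6 and mm10 as builds; strand setting and filters are not given in the sources used here.

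The 34 members and all lists were chosen with earlier results of these data known. Genes with FPKM of at least 1 in at least 4 samples were tested on log2(FPKM + 1), which understates changes of low genes, with limma 3.58.1 in R 4.3.3 (trended empirical Bayes, no covariate, Benjamini-Hochberg over 11667 genes, threshold 0.05, two-sided), after a trial on simulated data. Exact permutation tests of 4 against 4 allow no p below 0.0286. Median ratios to the gene-wise mean were 1.01 in every library, so the FPKM already carried that scaling. FPKM times gene length gave whole multiples of a step (within 0.01 for 100% of nonzero values), from which reads were recovered. Alternatives were a pseudocount of 0.1, no filter or FPKM of at least 5, 3 other scalings, voom on recovered reads and libraries left out. No library pair agreed within sampling noise. All members are named; from each other list, the 3 genes with the smallest p.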

Additional observations from a re-analysis of the deposited data

Results flagged for a closer look

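Within groups of 4, a library stood farther from the other 3 than Dixon's 95% critical value for 4 samples allows in 5 of 68 groups (34 genes, 2 groups each, on the log2(FPKM + 1) scale); chance flags about 1 in 20. The ratio of the gap to the range was 0.867 for Hspa1b in FTbR2KO 1, against 0.843 for Hspa1b and 0.855 for Hspa1a in control 5, each time as the lowest library. It was 0.886 for Maff in control 5 and 0.836 for Nr4a2 in control 8, both again the lowest of their group. Hspa1a and Hspa1b share reads, so their flags are not separate.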

How the results depend on the processing

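No member was called under any of the 16 alternatives, whose smallest adjusted p for a member was 0.268 (without FTbR2KO 4). Which members had an unadjusted limma p under 0.05 changed with the setting. In TPM these were 5 (Egr2, Nr4a3, Dnaja1, Fosl2 and Hsph1), against 13.1% of tested genes. Without TbR2fl/fl 5 alone they were 5 others (Klf2, Ier2, Jund, Ier3 and Maff), against 12.7%. The 2 genes called among all tested genes became 1 under the stricter filter, which left 33 members in the test (without Fosl1), and 2 to 8 when libraries were left out 1 at a time, the 8 without FTbR2KO 4. The members' median log2 fold change ran from -0.14 (without TbR2fl/fl 5) to 0.089 (without TbR2fl/fl 6) in those fits. TPM moved the median of all tested genes to 0.15 and that of members to 0.14, moves of similar size. Log2 fold changes turned their sign with TPM for Fos (0.12), Fosb (0.10), Jun (0.022), Junb (0.028), Egr3 (0.027), Klf4 (0.10), Klf6 (0.10), Zfp36 (0.046), Nr4a2 (0.15), Maff (0.091), Socs3 (0.13), Gadd45b (0.067) and Dusp1 (0.050), with quantile normalization for Fos (0.057), Fosb (0.0079), Klf4 (0.025), Klf6 (0.0043), Nr4a2 (0.021), Socs3 (0.058) and Gadd45b (0.039), with voom on recovered reads for Nr4a2 (0.0079), and without FTbR2KO 1 and TbR2fl/fl 5 together for Atf3 (-0.26), Ier5 (-0.055) and Btg1 (-0.0080). Leaving out 1 library at a time, the sign turned for Fos (-0.14 to 0.077), Fosb (-0.21 to 0.035), Fosl1 (-0.040 to 0.31), Egr3 (-0.44 to 0.049), Atf3 (-0.30 to 0.27), Ier5 (-0.098 to 0.13), Klf4 (-0.19 to 0.077), Klf6 (-0.18 to 0.074), Zfp36 (-0.33 to 0.038), Nr4a1 (-0.015 to 0.28), Nr4a2 (-0.18 to 0.16), Maff (-0.39 to 0.075), Btg1 (-0.025 to 0.16), Socs3 (-0.20 to 0.10), Dusp1 (-0.24 to 0.021), Hspa1a (-0.024 to 0.96) and Hspb1 (-0.15 to 0.44); besides the construction of TPM, the cause was not tested. No sign turned with a pseudocount of 0.1; another filter, or median-of-ratios scaling with its shared factor, cannot turn the sign of a gene. The fewest reads of a member in a library were 28, for Fosl1, so counting error bears most on that gene. No paired analysis was possible because the groups share no replicate numbers and the labels do not say that the codes in the titles pair samples.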
